A study of Mus musculus with 4 samples.

Results

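The comparison described here sets mDCT cells pretreated with spironolactone before 100 nM aldosterone against mDCT cells given 100 nM aldosterone alone, 1 array against 1 array of a series of 4. The members are genes: of 18193 genes that the probe sets with 1 gene symbol name, the 11057 whose brightest probe set was bright enough, with a mean log2 signal no lower than the middle of the array's probe sets, entered. mDCT cells are an immortalised line from the mouse distal convoluted tubule, a kidney segment that reabsorbs sodium under the control of aldosterone. The cells of all 4 libraries, the control included, had been lipofected with pCSII-3xFLAG-hMR, a plasmid for FLAG-tagged human mineralocorticoid receptor (MR), so none of them shows the endogenous receptor alone. At 48 h after transfection they received 5 µM spironolactone or ethanol for 2 h, and then aldosterone or ethanol for 3 h. Besides the 2 libraries compared, the series holds ethanol alone and 1 nM aldosterone, and each of the 4 treatments had 1 culture and 1 array. The pretreated library is called spironolactone below. There was no library with spironolactone and no aldosterone, so an action of the drug without the hormone cannot be told apart from its action on the hormone response. With 1 array a side there is no replicate error, and every difference below is one between 2 arrays, with no test.

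MR is a nuclear receptor that sits in the cytoplasm with heat shock proteins until a steroid binds it. It then enters the nucleus and raises transcription from DNA elements made of paired half-sites, which the glucocorticoid receptor also recognises. Spironolactone occupies the steroid pocket and keeps the receptor from its active form. In the distal nephron the best known products of the hormone response are Sgk1, a kinase that protects sodium channels from removal, and Tsc22d3, which encodes GILZ.

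The deposited values are MAS5 signals on a linear scale. The trimmed mean signal was 500.003 on each array, which shows a common scaling before deposit. The 3' to 5' signal ratio of the GAPDH control was 0.741 with 100 nM aldosterone and 0.783 with spironolactone. The 3 control probe sets for 18S ribosomal RNA were lower with spironolactone by 0.30, 0.37 and 0.46 on the log2 scale, and the 1 nM array was on the low side with it. Slc12a3, the sodium chloride cotransporter that defines the distal convoluted tubule, had signals of only 3.93, 17.2, 12.1 and 4.35 in ethanol, 1 nM, 100 nM and spironolactone, all under the filter, a signal of 55.9. Of 15 distal convoluted tubule markers on the array 7 entered, where 11057 of all 18193 genes did. The counts were 0 of 8 for the thick ascending limb, 6 of 16 for the proximal tubule and 1 of 11 for principal cells. They were 1 of 9 for intercalated cells, 3 of 6 for podocytes, 4 of 11 for endothelium, 3 of 12 for fibroblasts and 2 of 12 for leukocytes. The summed signal of the 15 markers lay between 7719 and 9238 in the 4 libraries, most of it from Wnk1. That of the 12 leukocyte markers lay between 1114 and 1366, most of it from Csf1r. In bulk samples such as these, fewer cells of a kind and less RNA per cell cannot be told apart.

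Of the 11057 genes, 202 (1.83%) reached 1.5-fold above aldosterone alone in the spironolactone library and 277 (2.51%) reached 1.5-fold below it. At 2-fold there were 42 higher (0.380%) and 60 lower (0.543%), and 5601 genes (50.7%) had a log2 difference below 0. The median log2 difference was -0.00, with 1st and 99th percentiles of -0.83 and 0.74. Counts of this size were seen between any of the 6 pairs of arrays: 194 to 289 genes were higher and 190 to 294 lower by 1.5-fold. The size of a difference depended on signal. Ordered by signal in 4 sets of equal size, the dimmest held 173 of the higher and 242 of the lower genes. Past 1.5-fold lay 1.66% of the second set, 0.47% of the third and 0.18% of the brightest, whose signals started at 1865. Only 287 of the 479 genes past 1.5-fold had both signals at or above the filter, and 50 of the 479 had clone-like names, which are not printed.

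**Figure D1:**
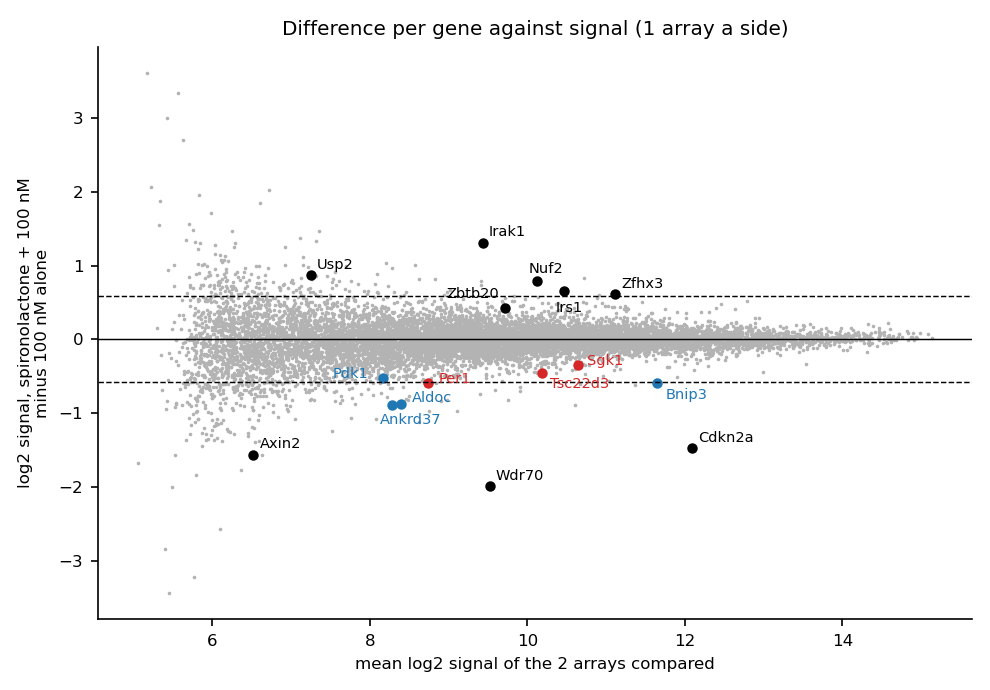
Each grey point is 1 of the 11057 genes, with the mean log2 signal of the 2 arrays on the x axis and the log2 difference, spironolactone plus 100 nM aldosterone minus 100 nM alone, on the y axis. Dashed lines mark 1.5-fold. The spread narrows from left to right. The labelled points are genes named in the text: Sgk1, Tsc22d3 and Per1 in red and Ankrd37, Aldoc, Bnip3 and Pdk1 in blue, all below 0, and others in black.

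Many genes are read by more than 1 probe set, which share the RNA and check the probe set, not the treatment. Across the 5218 genes with 2 or more at the filter, the brightest and second brightest probe sets had differences correlated at r = 0.07, a value over genes, which are not replicates. Of 64 genes past 1.5-fold with a second probe set, 33 had it on the same side of 0 and 9 also past 1.5-fold. For a single gene, then, most differences rest on 1 probe set. At least 1.3-fold in every probe set and on 1 side were 30 lower genes and 18 higher ones, and these are named below by preference.

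Corticosteroid-responsive genes are the usual readout of an MR antagonist. Sgk1 had signals of 801 in ethanol, 935 with 1 nM, 1810 with 100 nM and 1424 with spironolactone. The pretreated library thus stood below aldosterone alone but well above ethanol: its log2 difference from ethanol was 0.83, where that of 100 nM alone was 1.18. Tsc22d3 had signals of 711, 703, 1365 and 994 in the same order, so that its difference from ethanol was 0.48 with pretreatment and 0.94 without. Per1, a repressor of the circadian clock, had 231, 224, 527 and 349, with differences from ethanol of 0.60 and 1.19. In the brightest probe set of each of these genes ethanol and 1 nM were the low libraries, 100 nM was highest and spironolactone lay between. The other probe sets of Tsc22d3 at the filter differed by -0.22 and -0.09, and the dimmer of them had 188, 281, 272 and 255, with 1 nM highest. Sgk1 and Per1 were read by 1 probe set each. The comparison with ethanol and the comparison with spironolactone share the 100 nM array, so a gene read high on that array is lower in the one by the same amount as it is higher in the other.

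Smaller responses had the same order of the last libraries. Fkbp5, a co-chaperone of steroid receptors, had 1315, 1880, 1735 and 1414, so that both aldosterone libraries lay above ethanol and spironolactone. Its second probe set had 200, 210, 329 and 250 and was lower with spironolactone by 0.39 on the log2 scale, against 0.29 for the first. Rasl12, a small GTPase, had 157, 221, 250 and 197, and Tns1, a focal adhesion protein, 228, 268, 372 and 265. That is a difference of -0.49 for Tns1, whose other probe sets at the filter differed by -0.11 and -0.19, with 1 nM the lowest library in both. Klf9, a corticosteroid-induced repressor, had 1349, 1393, 1844 and 1640, a difference of -0.17 between the last 2, with 6 probe sets between -0.34 and 0.03. Tgm2, a crosslinking enzyme of the matrix, had another order, since spironolactone (166) was below ethanol (206), 1 nM (222) and 100 nM (288), and its 5 probe sets ran from -0.80 to 0.52.

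Over the whole list of 29 corticosteroid-responsive genes that entered, the median log2 difference was -0.04, 17 were below 0, 3 were lower by at least 1.5-fold (Tgm2, Mertk and Per1) and 0 were higher by as much. All genes had a median of -0.00 and 2.51% lower. Most of the list therefore stood near 0, as did Dusp1, a MAP kinase phosphatase (1788 against 1838), Cebpb, a transcription factor (4272 against 4422), and Mt2, a metallothionein (12623 against 13190). The largest difference upward was that of Angptl4, which had 77.3, 66.3, 80.0 and 117, with spironolactone the highest library. It was higher by 0.55, just under 1.5-fold. The 15 aldosterone-induced genes of the nephron, 4 of them in the list above, had a median of -0.29 with 10 below 0, 1 lower by 1.5-fold (Per1) and 1 higher (Usp2). That median was -0.17 over the 7 genes left by a stricter filter and -0.19 with the median of each gene's probe sets. Hsd11b2, the enzyme that inactivates glucocorticoids in aldosterone target cells, had 148, 126, 155 and 103, just under 1.5-fold lower. Usp2, a deubiquitinase, went the other way, with 169, 175, 113 and 206, a difference of 0.87. There the 100 nM library was the low one. The receptor genes themselves differed little: Nr3c1, the glucocorticoid receptor, had 1708 against 1871, with 5 probe sets between -0.20 and 0.23, and the mouse Nr3c2 did not pass the filter and does not read the human transgene.

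The promoters of Sgk1 and Tsc22d3 are printed to show which letters of the steroid receptor element lie near these starts. The window runs from 250 bases before to 50 after the start, from RefSeq on GRCm38.p6, and capitals mark the match. The half-sites searched were AGAACA and TGTTCT, each the other's reverse complement, so that both strands were covered. The palindrome searched was AGAACA and TGTTCT with 3 bases between, which holds 2 half-sites. The fifth of 6 Sgk1 promoters, chr10:21993640-21993939 on the plus strand, holds the palindrome from its base 62. Only the palindrome is in capitals there, and a further TGTTCT half-site near the start of the window is in lower case. The second of 3 Tsc22d3 promoters, chrX:140600473-140600772 on the minus strand, holds 1 half-site.
Sgk1: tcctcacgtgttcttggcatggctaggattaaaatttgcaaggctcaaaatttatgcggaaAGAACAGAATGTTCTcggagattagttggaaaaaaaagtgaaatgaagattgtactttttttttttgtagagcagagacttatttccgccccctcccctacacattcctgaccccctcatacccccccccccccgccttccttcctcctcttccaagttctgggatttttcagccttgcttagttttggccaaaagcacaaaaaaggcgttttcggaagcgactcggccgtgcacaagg
Tsc22d3: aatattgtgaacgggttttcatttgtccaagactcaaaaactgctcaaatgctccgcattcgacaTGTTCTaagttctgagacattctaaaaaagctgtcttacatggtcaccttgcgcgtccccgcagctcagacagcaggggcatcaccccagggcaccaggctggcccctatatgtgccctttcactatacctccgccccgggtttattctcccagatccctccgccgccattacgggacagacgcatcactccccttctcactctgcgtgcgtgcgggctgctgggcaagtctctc
The palindrome occurred in 3 of 32851 promoters in the table, and of 8999 entered genes with a promoter there Sgk1 was the only one to hold it. A half-site occurred in 1255 of those 8999 genes (13.9%) and in 4 of 25 corticosteroid-responsive genes. A match of letters does not say that a receptor binds there.

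Hypoxia-inducible factor (HIF) is a transcription factor whose alpha subunits are destroyed in normal oxygen after hydroxylation by Egln enzymes, and whose targets include glycolytic enzymes and mitochondrial regulators. Of 30 genes of the HIF target list that entered, 26 lay lower with spironolactone than with aldosterone alone, against 50.7% of all genes. The median log2 difference was -0.15. The list, called HIF targets below, also holds genes of HIF itself and of its control. These are Hif1a, Epas1, Arnt, Hif1an and Vhl, and they enter every count given for the list. In the bright part of the list, 22 of 23 were below 0, against 48.5% of all bright genes. Only 2 were lower by 1.5-fold and 0 were higher, so the group differed by many small differences rather than by a few large ones. Of 61 probe sets for these genes 53 were below 0 (86.9%), against 50.9% of all 19918. Among 19 members with 2 or more probe sets, all of them lay below 0 in 14 and all above 0 in 0, where the shares over all such genes were 21.0% and 20.4%.

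Ankrd37, an ankyrin repeat protein strongly induced by HIF, had 362, 330, 425 and 229 in ethanol, 1 nM, 100 nM and spironolactone, a difference of -0.89. Bnip3, a mitophagy receptor, had 3694, 3718, 3932 and 2615, so that the first 3 libraries lay close together and spironolactone stood alone below them. Pdk1, a kinase that inhibits pyruvate dehydrogenase, had 383, 363, 344 and 239. Its 3 probe sets differed by -0.53, -0.81 and -0.84. Ndrg1, a stress-response gene, had 5327, 5051, 5435 and 4743, and its 5 probe sets were all lower, by 0.20 to 0.40. Ddit4, an inhibitor of mTORC1 that glucocorticoids also induce, had 4927, 4105, 5120 and 3844. Fam162a, a mitochondrial protein, had 5339, 5243, 5504 and 4596, and P4ha2, a subunit of the collagen prolyl hydroxylase, had 1508, 1558, 1603 and 1299. In 20 of the 30 genes spironolactone was the lowest of the 4 libraries, where it was lowest in 25.02% of all genes. The 100 nM library was the highest in 15 of the 30, against 25.5%, so part of the difference lay on that side.

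The genes of oxygen sensing, members of the same list and counted above, were mostly lower by small amounts. The brightest probe sets of the alpha subunit gene Epas1, the hydroxylases Egln1 and Hif1an, and Vhl, the ligase subunit that removes HIF, differed by -0.10, -0.12, -0.12 and -0.24. Hif1a, which encodes an alpha subunit, had 7732 against 7700, and its partner Arnt had 1958 against 1634, with all 5 probe sets below 0. Egln3 was lower by 0.24 in 1 probe set and higher by 0.48 in another. The members above 0 were Vegfa, the endothelial growth factor (0.10, with -0.46 in a second probe set), Pfkfb4 (0.20), Rora (0.21) and the dim Pfkfb3 (0.45).

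Glycolytic genes, which partly answer to HIF, were lower in 17 of 22, with a median of -0.09. Aldoc, an aldolase, had 366, 290, 457 and 250, a difference of -0.87 and the only member past 1.5-fold. Eno2, an enolase, had 314, 219, 256 and 179, a difference of -0.51. The abundant enzymes differed by little: Ldha had 17367 against 15666 and Pgk1 had 17964 against 16182, each lower by 0.15, and Aldoa was lower by 0.17. Of 43 probe sets 36 were below 0 (83.7%). All probe sets lay below 0 in 6 of 8 genes with several. Hk2, a hexokinase, was higher by 0.21, and Slc16a1, a lactate transporter, by 0.08. Cell density and oxygen in the cultures are not in the labels, and their part in the result was not tested.

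**Figure D2:**
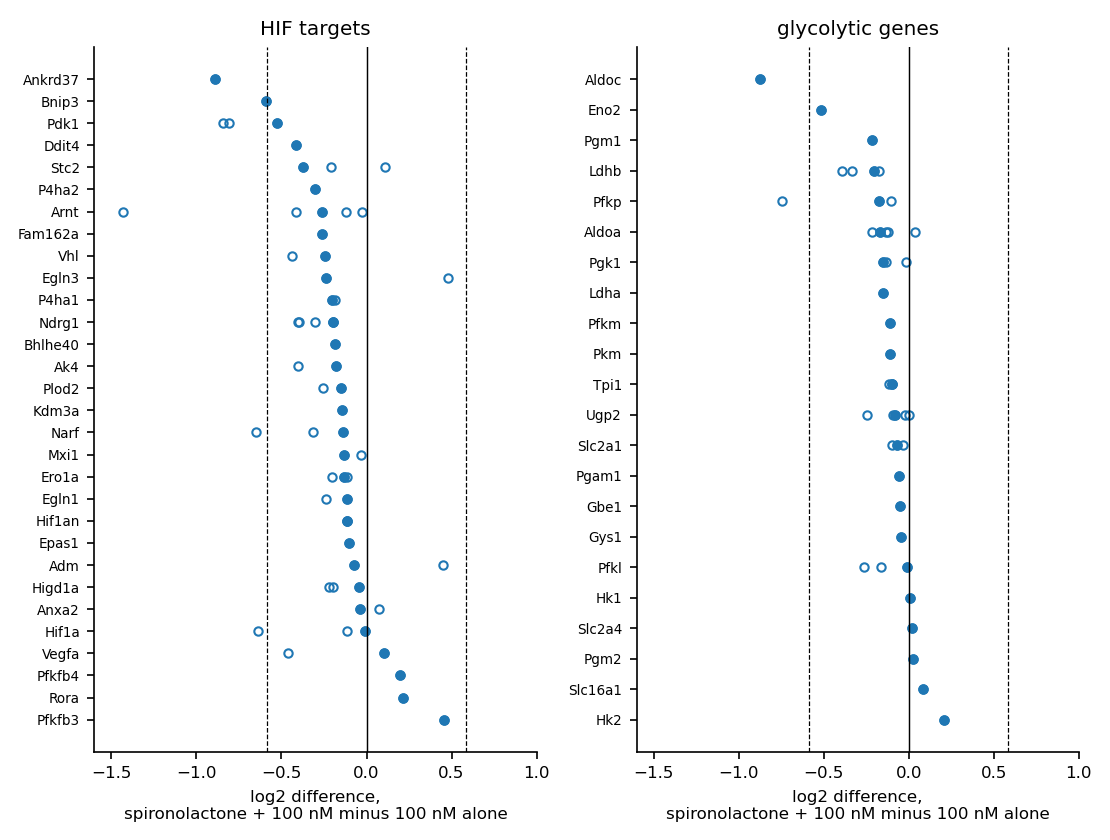
Each row is 1 gene of the HIF target list (left) or the glycolysis list (right). Filled points give the log2 difference of the brightest probe set, spironolactone plus 100 nM aldosterone minus 100 nM alone, and open points the gene's other probe sets at the filter. Dashed lines mark 1.5-fold. The HIF list also holds genes of HIF itself and of its control. Of its 30 genes 26 and of 22 glycolytic genes 17 have the filled point left of 0.

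**Figure D3:**
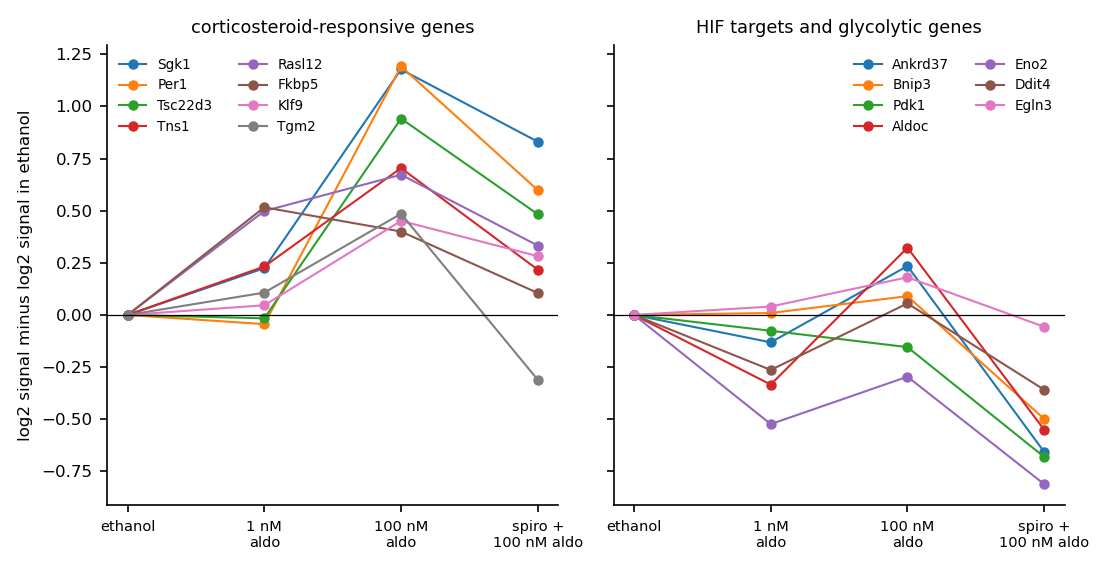
The y axis gives the log2 signal minus that in ethanol, for 1 array per treatment on the x axis; lines join the values of 1 gene. On the left, spironolactone lies below 100 nM alone in all 8 genes and above ethanol in all but Tgm2. On the right, spironolactone is the lowest library for all 7 genes shown. The genes are a selection. Over the whole lists, 17 of 29 corticosteroid-responsive genes lay below 0. Spironolactone was lowest in 20 of 30 genes of the HIF list and 12 of 22 glycolytic genes.

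The promoters of the 4 genes with the largest differences of the combined lists are printed for the hypoxia response element core. The letters searched were ACGTG and GCGTG with their reverse complements, and CACGTG holds the first on both strands. Ankrd37 lies at chr8:45999801-46000100 on the minus strand, Bnip3 at chr7:138909457-138909756 on the minus strand, Aldoc at chr11:78322823-78323122 on the plus strand and Pdk1 at chr2:71872974-71873273 on the plus strand. Capitals mark ACGTG or its complement in the first 3 and GCGTG in Pdk1.
Ankrd37: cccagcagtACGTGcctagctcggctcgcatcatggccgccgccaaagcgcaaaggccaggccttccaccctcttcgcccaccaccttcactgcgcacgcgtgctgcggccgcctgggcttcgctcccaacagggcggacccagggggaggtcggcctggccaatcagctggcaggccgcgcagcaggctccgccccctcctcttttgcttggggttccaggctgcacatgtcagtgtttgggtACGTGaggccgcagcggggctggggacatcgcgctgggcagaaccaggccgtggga
Bnip3: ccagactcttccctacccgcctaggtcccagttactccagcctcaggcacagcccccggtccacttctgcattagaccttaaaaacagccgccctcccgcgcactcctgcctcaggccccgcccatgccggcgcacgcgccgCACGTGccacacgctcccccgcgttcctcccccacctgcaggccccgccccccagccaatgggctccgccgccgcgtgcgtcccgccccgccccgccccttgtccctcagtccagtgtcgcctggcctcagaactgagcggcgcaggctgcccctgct
Aldoc: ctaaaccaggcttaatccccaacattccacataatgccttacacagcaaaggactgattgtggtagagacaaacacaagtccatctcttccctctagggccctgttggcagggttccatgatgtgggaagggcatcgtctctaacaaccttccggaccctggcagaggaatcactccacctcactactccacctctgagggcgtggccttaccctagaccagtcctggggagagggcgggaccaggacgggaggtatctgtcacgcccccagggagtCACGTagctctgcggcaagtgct
Pdk1: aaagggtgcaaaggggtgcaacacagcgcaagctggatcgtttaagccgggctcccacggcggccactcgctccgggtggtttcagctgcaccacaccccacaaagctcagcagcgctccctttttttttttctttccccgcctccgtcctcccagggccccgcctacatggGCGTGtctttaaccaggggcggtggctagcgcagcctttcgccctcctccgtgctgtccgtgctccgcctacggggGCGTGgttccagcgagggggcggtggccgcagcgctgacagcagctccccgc
ACGTG was present in a promoter of 17 of 26 genes of the HIF target list (65.4%) and 14 of 21 glycolytic genes (66.7%). The share was 30.0% of the 8999 entered genes. With GCGTG allowed, the share was 24 of 26 against 69.1%. These genes are listed because HIF acts on many of them, so the letters describe the list and not the difference.

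Genes of growth signalling leaned the other way, by small amounts. Of 30 immediate early genes, the first transcripts made after a growth signal, 22 were above 0 with a median of 0.09, and 0 passed 1.5-fold in either direction. Ccn1, a matricellular protein, had 5043, 5194, 4461 and 5786, Fosl1, an AP-1 subunit, 751, 634, 537 and 694, and Nr4a1, an orphan nuclear receptor, 385, 371, 346 and 438. The 100 nM library was the lowest of the 4 in 13 of the 30 genes, against 25.2% of all genes. Ccn2, another matricellular gene, did not follow, with 3342, 2887, 5602 and 4835. Egr1 was also lower with spironolactone (3520 against 3137), and Fos differed by -0.05. All probe sets lay above 0 in 7 of 12 genes with several, against 20.4%.

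In the ERK feedback and epidermal growth factor family, 18 of 26 genes were above 0 and the median was 0.13, or 0.27 with the second brightest probe sets. Spry4, a feedback inhibitor, had 97.4, 131, 90.0 and 124 and a second probe set higher by 0.72. The phosphatases Dusp4 and Dusp6 were higher by 0.37 and 0.24, and Phlda1 by 0.30, with 1804, 1605, 1264 and 1551. Their 100 nM signals lay below the other 3 libraries. Fgfr2, a growth factor receptor, was the only member past 1.5-fold, and it was lower, with 215 against 137. Its second probe set differed by -0.04.

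Among inflammatory genes, 22 of 29 were above 0, with a median of 0.05, or 0.006 with the second brightest probe sets. Ptgs2, the inducible cyclooxygenase, had 408, 423, 340 and 488, and its probe sets were higher by 0.52 and 0.49. Ccl20, a chemokine, had 212, 195, 145 and 234, a difference of 0.69, and Ccl2 had 1947, 1972, 1782 and 2428. Irak1, a kinase of the interleukin receptor pathway, had 1246, 1281, 439 and 1088 in its brightest probe set, a difference of 1.31, but its other 3 probe sets differed by -0.05, 0.07 and 0.21. The inhibitor Nfkbia was level (5719 against 5808). Interferon-responsive genes differed in both directions: Psmb9, a proteasome subunit, was lower (305 against 183), as was the transcription factor Stat2 in both of its probe sets, while the dim Rsad2, an antiviral enzyme, was higher by at least 1.80-fold (52.1 against 101, with the low side put at the filter). Of 15 Notch genes 10 were above 0, with a median of 0.14, which was 0.020 with no filter, 0.037 with a stricter one and 0.034 with the second brightest probe sets, and none passed 1.5-fold.

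Transport genes of the distal tubule showed no member past 1.5-fold. Of 16 that entered 9 were above 0, with a median of 0.08. Wnk4, a kinase that regulates Slc12a3, had 207, 247, 209 and 159, and Wnk1, its relative, had 6887, 7413, 6878 and 8372 in the brightest of 3 probe sets, which ran from -1.08 to 0.28. Atp1b1, a subunit of the sodium pump, had 4622, 5028, 5465 and 4864, with 5 probe sets between -0.17 and 0.25. Scnn1a, the alpha subunit of the epithelial sodium channel, was dim, with 58.2, 89.3, 87.5 and 99.2, and spironolactone was not below aldosterone alone. Nedd4l, the ligase that removes the channel and that Sgk1 inhibits, had 923 against 903, with 0.42 in a second probe set. Of 14 calcium and magnesium transport genes 10 were below 0, with the median at -0.08. Pvalb, a calcium buffer of this segment, was the only one past 1.5-fold, from signals of 61.1 and 38.3, the second of them under the filter.

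Spironolactone is also known as a ligand of the pregnane X receptor, which drives drug transporters. Of 13 genes of steroid and xenobiotic receptors 9 were above 0, with a median of 0.12. Of all genes, 50.7% were below 0. The 8 bright members had a median of 0.05, with 4 below 0. Of the 24 probe sets for the list 13 were below 0 (54.2%), against 50.9% of all probe sets. The efflux pump genes were Abcc1, with 1565, 1471, 1452 and 2047 and a second probe set at -0.12, Abcc4, with 1581, 1470, 1411 and 1780, and the dim Abcc3, with 68.4, 59.9, 53.1 and 79.8, of which the 100 nM signal was under the filter. Abcb1b, another pump, had 1494 against 1614. With the second brightest probe set of 7 of these genes the median of the list was -0.03. Esr1, the estrogen receptor, had 189, 188, 199 and 126, a difference of -0.65, and spironolactone was alone on the low side.

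The Wnt and Hippo genes held 3 members lower by at least 1.5-fold and a median of 0.02. Axin2, a feedback inhibitor of Wnt signalling, had 54.7, 70.4, 158 and 53.4, so that 100 nM alone was at least 2.83-fold above spironolactone with the low side put at the filter. Dkk3, a secreted protein of the Dickkopf family, had 216, 234, 315 and 150, and its second probe set differed by -0.21. Porcn, which acylates Wnt proteins, had 81.1 against 37.4, the second of them under the filter, and with the low side put at the filter it was at least 1.45-fold lower. Lef1, a nuclear partner of beta-catenin, had 261, 275, 181 and 268, a difference of 0.57 in the other direction. In the TGF-beta and BMP list, Ski, a corepressor, had 369, 400, 776 and 394, but its second probe set differed by -0.01. Fst, which binds activin, was lower by 0.46 and 0.53 in its probe sets, and Bmp1, a procollagen protease, was higher by 0.42.

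Irs1, the insulin receptor substrate, had 1590, 1472, 1124 and 1769, a difference of 0.65 with 100 nM alone below the others. Fasn, the fatty acid synthase, had 3253, 3069, 2696 and 3446. In both genes spironolactone lay near ethanol, with log2 differences from it of 0.15 and 0.08. Abca1, a cholesterol exporter, had 80.1, 80.7, 45.0 and 72.9, so that its 100 nM signal was under the filter. Irs2 was lower with spironolactone (121 against 89.0), and the list of 36 genes had a median of -0.01.

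A further pattern parted the libraries in pairs. Cdkn2a, the locus of the p16 and p19 inhibitors of the cell cycle, had 6210, 2812, 7295 and 2616, a difference of -1.48, with ethanol and 100 nM alone high and 1 nM and spironolactone low. Cenpb, a centromere protein, had 579, 310, 603 and 308, Tmem14c, a mitochondrial heme transporter, 1230, 811, 1222 and 749, and Pithd1, a proteasome-associated protein, 2166, 1330, 2015 and 1320. Cdkn2a, Cenpb and Tmem14c were read by 1 probe set each at the filter. The dim second probe set of Pithd1 had another order, with 52.7, 53.2, 116 and 74.8. Of 17 bright genes lower by 1.5-fold 5 had this order with a gap of at least 1.5-fold, and 3 had spironolactone alone below the other 3 libraries by as much. Among all 277 lower genes 15 had this order and 73 had spironolactone alone low. Another of the 5 bright genes, Marf1, had 612, 332, 639 and 359, a difference of -0.83, but its other probe sets differed by 0.20 and 0.88. Lmnb1, a nuclear lamin, had 2395, 1876, 2563 and 1735, with both probe sets lower. Among the 15 bright genes higher by 1.5-fold 0 had the reverse order with such a gap, and among all 202 higher genes 12 had it. The next 4 genes had the reverse order with smaller gaps and were picked for it after their values were seen. Zfhx3, a transcription factor, had 1856, 2387, 1796 and 2748, with 6 probe sets between 0.26 and 0.84, and Zbtb20, a repressor, 635, 838, 728 and 975, with all 8 at 0.38 or above. Kmt2d, a histone methyltransferase, had 513, 708, 480 and 701, and the cytolinker Plec 2507, 3244, 2351 and 3347. The second probe set of Plec kept this order, with 272, 420, 375 and 545, and the dim one of Kmt2d did not, with 87.4, 51.1, 60.6 and 83.4. This order pairs the untreated library with 100 nM alone, and the low dose with the antagonist.

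The 18S ribosomal control, like Cdkn2a, was high in ethanol and 100 nM alone. Its 5' probe set had 9346, 6897, 10368 and 7560. Gene length went with the difference too: in 5 sets of equal size by genomic span, the median log2 difference was -0.02 for the shortest genes (median span 4.42 kb) and 0.03 for the longest (116 kb), and the share below 0 went from 56.1% to 44.4%. In the difference of 1 nM from ethanol the shortest and longest sets had medians of -0.03 and 0.02. Whether RNA composition or quality takes part in these genes was not tested. For the HIF targets, the medians of the log2 signals, each taken about the gene's mean, were 0.06, 0.01, 0.06 and -0.11 in ethanol, 1 nM, 100 nM and spironolactone. For the glycolytic genes they were 0.04, -0.02, 0.04 and -0.05, so that ethanol and 100 nM alone were the high libraries here too.

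**Figure D4:**
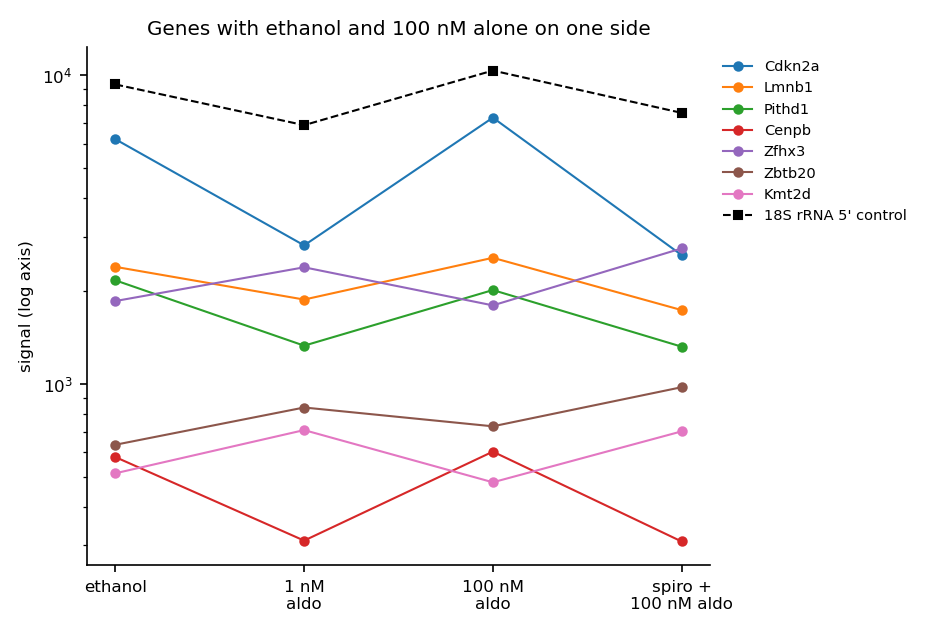
Signal on a log axis for 1 array per treatment; lines join 1 gene, and the dashed line is the 5' control probe set for 18S ribosomal RNA. Cdkn2a, Lmnb1, Pithd1, Cenpb and the 18S control are high in ethanol and 100 nM alone, while Zfhx3, Zbtb20 and Kmt2d are low there.

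Among all genes measured on both sides, the lowest difference was that of Wdr70, a WD repeat protein: its signals were 1279, 1382, 1469 and 368, a 3.99-fold difference with spironolactone alone low. Its second probe set read 799, 706, 685 and 730 and showed a difference of 0.09. Dyrk1b, a kinase (171 against 57.8), Des, the muscle filament protein (156 against 60.3), Zap70, a T-cell kinase (583 against 268) and Sncb, a synuclein (283 against 120), were lower from low signals and 1 probe set each. At the high end stood the homeobox gene Nkx2-6 (86.1 against 224), the sorting complex subunit Vps25 (101 against 202) and the zinc finger gene Zfp2 (79.0 against 188). Smarca1, a chromatin remodeller (85.5 against 172), and Edn3, an endothelin (68.8 against 136), were near 2-fold higher. Measured on both sides and past 2-fold were 10 higher and 17 lower genes.

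Bright genes past 1.5-fold were few, 15 higher and 17 lower of 6936. Ap1b1, an adaptor of clathrin coats, had 1052, 1176, 1153 and 649, and Ces5a, a carboxylesterase, 464, 598, 466 and 265; spironolactone alone was low in both. Pan3, a deadenylase subunit, had 1026, 1192, 2125 and 1143, so that 100 nM alone was high, but the median of its 3 probe sets was 0.22. Slc40a1, the iron exporter, was lower (869 against 521), with -0.17 in a second probe set. Nuf2, a kinetochore protein, had 1455, 1542, 851 and 1472, Ppp1r37, a phosphatase regulator, 558, 450, 270 and 542, and Tmem158, a Ras-induced membrane protein, 804, 991, 520 and 899. In these 3 genes 100 nM alone was the low library, and Tmem158 was higher in its second probe set by 0.47. Nfic, a transcription factor, had 1648, 2064, 1268 and 2251, and Pop1, a subunit of RNase P, 641, 505, 343 and 603.

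Of the genes lower in every probe set, Pigt, which attaches GPI anchors, differed by -1.09 and -1.88, with 393, 215, 395 and 186 in the first, the paired order again. Septin4, a filament protein, had 241, 260, 341 and 202, and Rab27b, a secretory GTPase, 141, 131, 151 and 93.3, each with its probe sets within 0.05 of each other on the log2 scale. Fcho1, an endocytic protein, was lower by 0.89 and 0.92. Among those higher in every probe set were Sema6c, a semaphorin (90.3 against 148), Pstpip2 (92.5 against 156), Cep192, a centrosome protein (919 against 1369), and Surf2 (274 against 406).

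Large sets of housekeeping function stayed close to 0. The median was -0.02 over 77 oxidative phosphorylation genes, 0.02 over 45 cytosolic ribosomal proteins, 0.01 over 48 splicing factors, -0.01 over 37 S phase genes and 0.01 over 39 genes of the protein folding and amino acid stress responses. In each of these 5 lists 0 members passed 1.5-fold. The 39 genes of G2 and mitosis had a median of -0.02, and Nuf2 was the only one past 1.5-fold. Of the 37 lists with 10 or more genes, those of the nephron response and the HIF targets had the lowest medians and those of Notch and ERK feedback the highest, in an order that rests on the brightest probe sets and this filter, as the other values of the nephron, Notch and ERK medians above show.

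**Figure D5:**
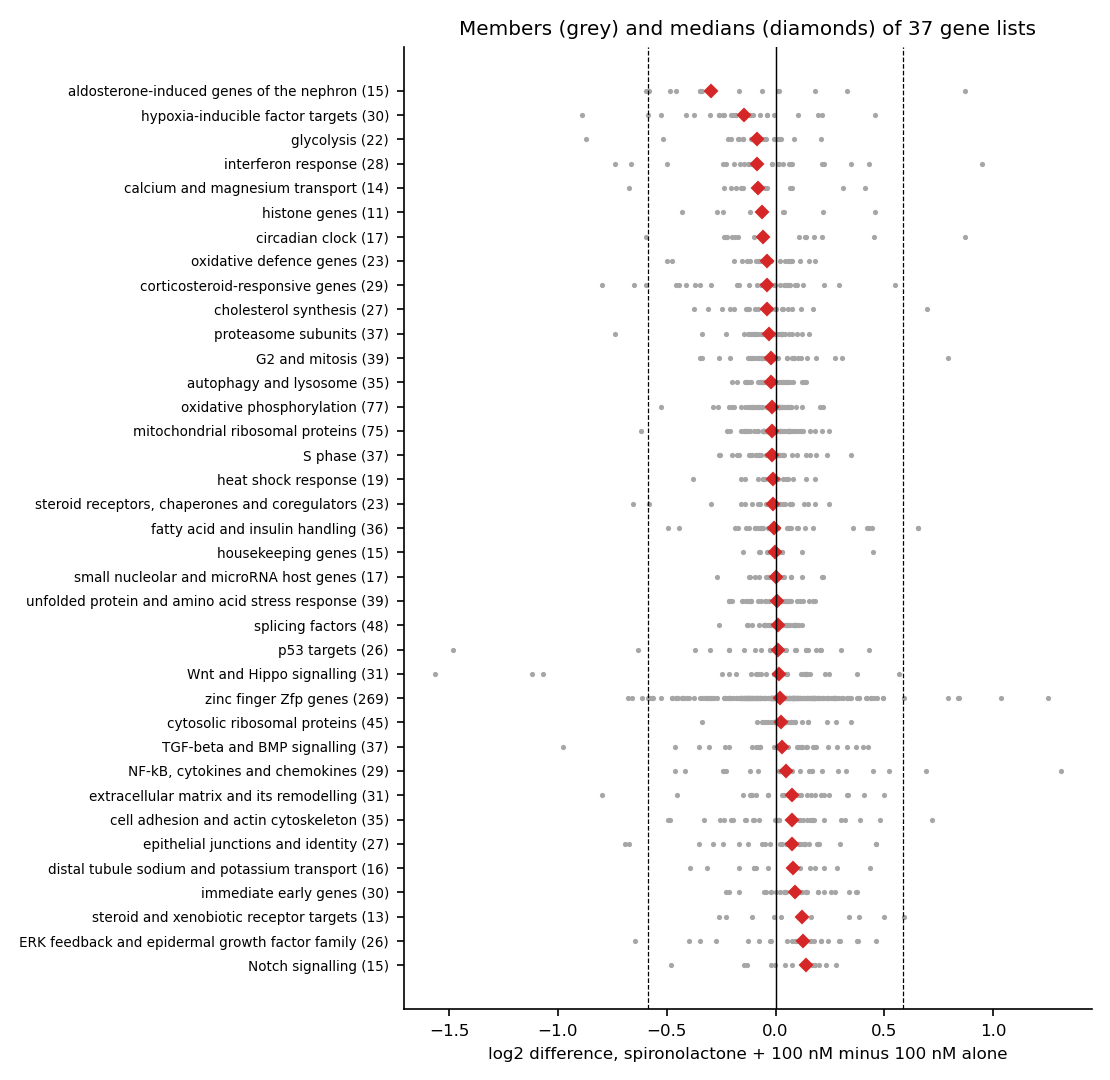
Grey points are the members of 37 gene lists with 10 or more entered genes (number in brackets) and diamonds the medians; the x axis is the log2 difference, spironolactone plus 100 nM aldosterone minus 100 nM alone. Dashed lines mark 1.5-fold. Medians run from -0.29 for aldosterone-induced genes of the nephron to 0.14 for Notch signalling, and most lie within 0.1 of 0.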

How the data were processed

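Total RNA of 1 culture per treatment was labelled as biotin cRNA from 250 ng and hybridised to an Affymetrix 3' array, per the labels' protocols. The deposited table holds a linear intensity per probe set, made by the authors with MAS5 (per the submitters' processing notes). For its version, scaling target and detection calls, nothing is given in the sources used here. The number of value columns from other samples was 0.

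From the 45101 probe sets 64 array controls were set aside. Of the rest, 34945 had 1 gene symbol in the platform annotation, 932 had several and 9160 were not listed there; 34741 had an Entrez identifier that the RefSeq annotation of GRCm38.p6 also holds, and 0 symbols changed. Each gene was read from its brightest probe set by mean log2 signal over the 4 arrays, and it entered where that mean was at or above the 50th percentile of probe sets. Differences are of log2 signal with no pseudocount and no further scaling. A gene with a mean signal at or above the 75th percentile, 420, is called bright. With 1 array a side no p-value or interval exists, and precision is limited by the number of arrays. The procedure was run on simulated arrays, in which each planted change was put into all probe sets of a gene. Their noise was of 1 size and smaller than the spread seen here, so the run checks the code and not the calls.

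The comparison, the 46 gene lists and the rules were chosen with earlier results of these data known. Named genes were the 12 highest and 12 lowest measured on both sides, the 10 and 10 of the bright genes, the 10 and 10 with every probe set at least 1.3-fold to 1 side, the 4 largest differences of each list with every member past 1.5-fold, and 9 corticosteroid genes; other list members are named beside them as examples chosen after their values were seen. Clone-like names were counted only. Promoters were read from a RefSeq table. Alternatives were quantile normalization, centring, a loess offset with span 0.4, the median of the probe sets, no filter or a stricter one, a floor at the filter, a pseudocount of 32 and, chosen after seeing the data, the second brightest probe set. Python 3.11.15, numpy 2.4.6 and pandas 2.3.3 were used.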

Additional observations from a re-analysis of the deposited data

How the results depend on the processing

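No paired analysis was possible because each treatment had 1 array, and none could be left out. The counts held within 1.5 times under quantile normalization, centring, the loess offset and the median of the probe sets. Genes at least 1.5-fold higher and lower numbered 2179 and 2621 with no filter (1380 and 1742 at 2-fold), 15 and 17 with the stricter filter (2 and 2 at 2-fold), and 102 and 128 with a pseudocount (15 and 15 at 2-fold). With low signals raised to the filter, 20 were higher and 28 lower by 2-fold. The second brightest probe set, an alternative chosen after seeing the data, gave 147 higher and 148 lower by 1.5-fold. At 2-fold it gave 38 higher and 20 lower. These counts are over 5218 genes, those with no filter over 18193 and those with the stricter filter over 6936, in place of 11057. The cause of these shifts was not tested.

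A list median or a gene counted as moved when it changed by more than 0.1 on the log2 scale. The median of the nephron list was -0.19 with the median of the probe sets and -0.17 with the stricter filter. That of the Notch list was 0.020 with no filter, 0.037 with the stricter filter and 0.034 with the second probe set, and that of the ERK list was 0.27 with the second probe set. The HIF targets stayed between -0.20 and -0.14 and glycolysis between -0.12 and -0.08 under all settings run. With the median of the probe sets the difference was 0.20 for Marf1 and 0.22 for Pan3, against -0.83 and -0.89 with the brightest. With the second brightest probe set, signs also turned. Positive values became negative for Abl1 (0.74 to -0.48), Ccdc74a (0.98 to -0.24), Ddhd1 (0.99 to -0.24), Irak1 (1.31 to -0.048) and Zfp493 (0.84 to -0.43). Negative values became positive for Hira (-0.83 to 0.053), Marf1 (-0.83 to 0.20), Pan3 (-0.89 to 0.22) and Wdr70 (-1.99 to 0.091). The median of the xenobiotic receptor list went from 0.12 to -0.028. The cause was not tested.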
